A study of Rattus norvegicus with 30 samples.

Results

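The comparison described here is between cultured rat cortical neurons that received the AAV9 αSyn 3K vector (3K) and cultures that received the matching vector without an insert (EV), 19 d after transduction. It holds 10 of the 30 RNA-Seq libraries of the series, 5 per treatment, and covers every gene that reached a normalized count of 10 in 5 or more of the 30 libraries, which left 12911 genes. The rows of the αSyn 3K vector and of the empty vector were kept out of all tests. All cultures came from Sprague Dawley rat embryos, and in all of them AAV was added on day 5 in vitro. Both vectors carried the CAG promoter, which is active in many cell types and is not specific to neurons, and which cells expressed the vectors was not measured. The sample titles of both groups also carry the term PBS. The other 20 libraries, taken 6 and 12 d after AAV, serve here only for comparison and for the common estimate of each gene's spread.

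α-Synuclein is a protein of presynaptic terminals that binds to lipid membranes and accumulates in Lewy bodies and neurites in Parkinson's disease (PD). αSyn 3K is a human α-synuclein in which a familial PD mutation, a change of glutamate to lysine, is repeated in neighboring repeats of the protein. Lipid supply and α-synuclein are linked in many models because the protein moves between a soluble and a membrane-bound state. In cortical cultures neurons depend in part on astrocytes for cholesterol and for metabolites such as lactate and glutamine, and neuronal activity turns on a set of rapidly induced transcription factors whose targets include growth factors and peptides.

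The 10 libraries were alike in depth. Reads over genes ranged from 5638879 to 6797722 in EV and from 4923519 to 7035869 in 3K. In 3K, αSyn 3K vector reads had a normalized count of 24755 ± 2376 (SD, n = 5), which was 117 times the 211 ± 32.9 (SD, n = 5) found in EV. No library stood apart in a principal component analysis of the 10, in which the leading components held 16.6% and 14.5% of the variance. The share of reads from mitochondrial genes was 4.78% ± 0.297 (SD, n = 5) for the 3K libraries but 4.21% ± 0.276 (SD, n = 5) for the EV libraries, a difference of 0.57 percentage points (exact permutation test, two-sided, p = 0.016, where the smallest p that the labelings allow is 0.0079). Because this share moved with the treatment, each count was also taken from a fit with the share as a term. Neuronal markers were present in all libraries. So were astrocyte markers, whose counts summed to between 86233 and 92086 in EV and between 76731 and 88123 in 3K, whereas 7 microglial markers (P2ry12, C1qa, C1qb, C1qc, Tyrobp, Ctss and Fcer1g) and the endothelial and mural markers Cldn5, Cdh5 and Acta2 had no read in any of the 10.

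Values below are normalized counts, that is, read counts per gene divided by a scaling factor per library, and are not corrected for gene length. Differences are log2 fold changes of 3K against EV on the log2(normalized count + 1) scale with their standard error (SE), which understates the changes of genes with few reads. Tests are from limma, and a gene was called when its p, adjusted over the 12911 genes, was under 0.05. At day 19, 488 genes were higher in 3K, 3.78% of those tested, and 527 were lower, 4.08% of those tested, so that 48.1% of the called genes were higher. With libraries scaled to equal totals the split was 631 higher and 376 lower, 62.7% higher, while the median log2 fold change of all genes moved only from -0.0031 to 0.02. The fit with the mitochondrial share as a term called 411 higher and 423 lower. Among the called genes the median log2 fold change was 0.37 for those higher and -0.26 for those lower, 136 genes rose and 42 fell at least 1.5-fold, and 45 rose and 9 fell at least 2-fold. Called rises were thus larger than called falls, but called changes were also larger in genes with few reads. Their median absolute log2 fold change was 0.68 under a mean count of 100, 0.31 from 100 to 1000 and 0.20 above 1000. Sizes of rises and falls were not compared among genes of like counts. Falls were concentrated in genes with many reads. Of 1224 genes with a mean count above 1000, 60 were higher and 217 lower, whereas of 4898 genes with a mean count under 100, 137 were higher and 46 lower. No gene list described below was compared with genes of like counts. Every 3K library lay above every EV library for 400 genes, 3.1% of those tested, and below for 459 genes, 3.56%, and 296 and 326 of these were also called. The spread between libraries did not differ much between the groups, with a median SD over genes of 0.15 on the log2 scale in each.

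**Figure D1:**
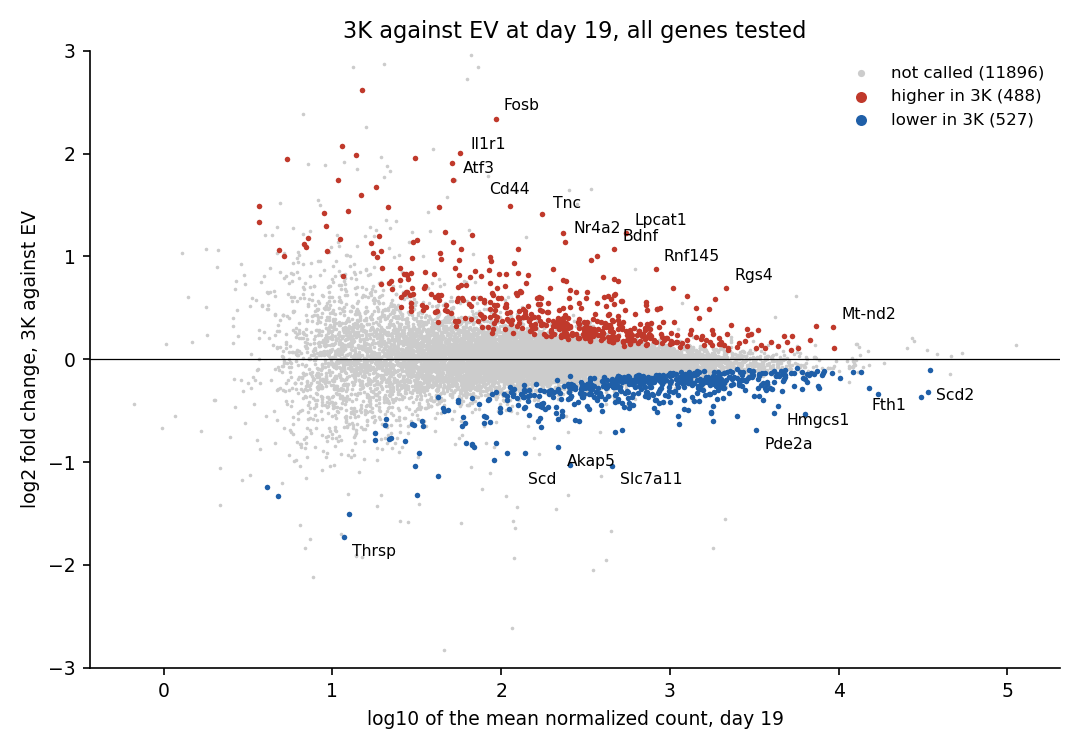
Log2 fold change of 3K against EV at day 19 against the log10 of the mean normalized count of the 10 libraries, with 1 point per gene for the 12911 genes tested. Genes higher in 3K (488, red) extend to larger changes at low counts, and genes lower in 3K (527, blue) lie mostly at high counts, and 2 genes lie outside the vertical axis.

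The gene with the smallest p was Lpcat1, which encodes an acyltransferase that rebuilds phosphatidylcholine from lysophosphatidylcholine. Its normalized counts in EV replicates 1 to 5 were 317, 314, 337, 323 and 345, and those in 3K replicates 1 to 5 were 705, 812, 825, 713 and 779. The lowest 3K library was thus above the highest EV library, and the means of 327 ± 13.5 (SD, n = 5) and 767 ± 55.3 (SD, n = 5) corresponded to 1.23 on the log2 scale (SE 0.05, limma adjusted p = 3.4e-17). Rnf145, which encodes a membrane-bound ubiquitin ligase that takes part in sterol sensing, had counts of 615, 580, 585, 578 and 539 in EV and 1088, 1141, 1006, 966 and 1123 in 3K. Here too the groups did not overlap, with a log2 fold change of 0.88 (adjusted p = 7.2e-13, SE 0.06). Rgs4, which shortens signaling by G proteins coupled to metabotropic receptors, was between 1538 and 1735 in EV and between 2487 and 2775 in 3K, a log2 fold change of 0.69 (adjusted p = 2.6e-13, SE 0.04). Tmem50b, a small membrane protein of the secretory pathway, rose by 0.61 (SE 0.04, adjusted p = 7.2e-13) from 1003 ± 24.9 to 1534 ± 90.3 (SD, n = 5 each), and Snn, which encodes the membrane protein stannin, rose by 0.70 from 796 ± 34.6 to 1290 ± 49.5 (SD, n = 5 each). In none of these genes did a 3K library reach down to the EV range.

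**Figure D2:**
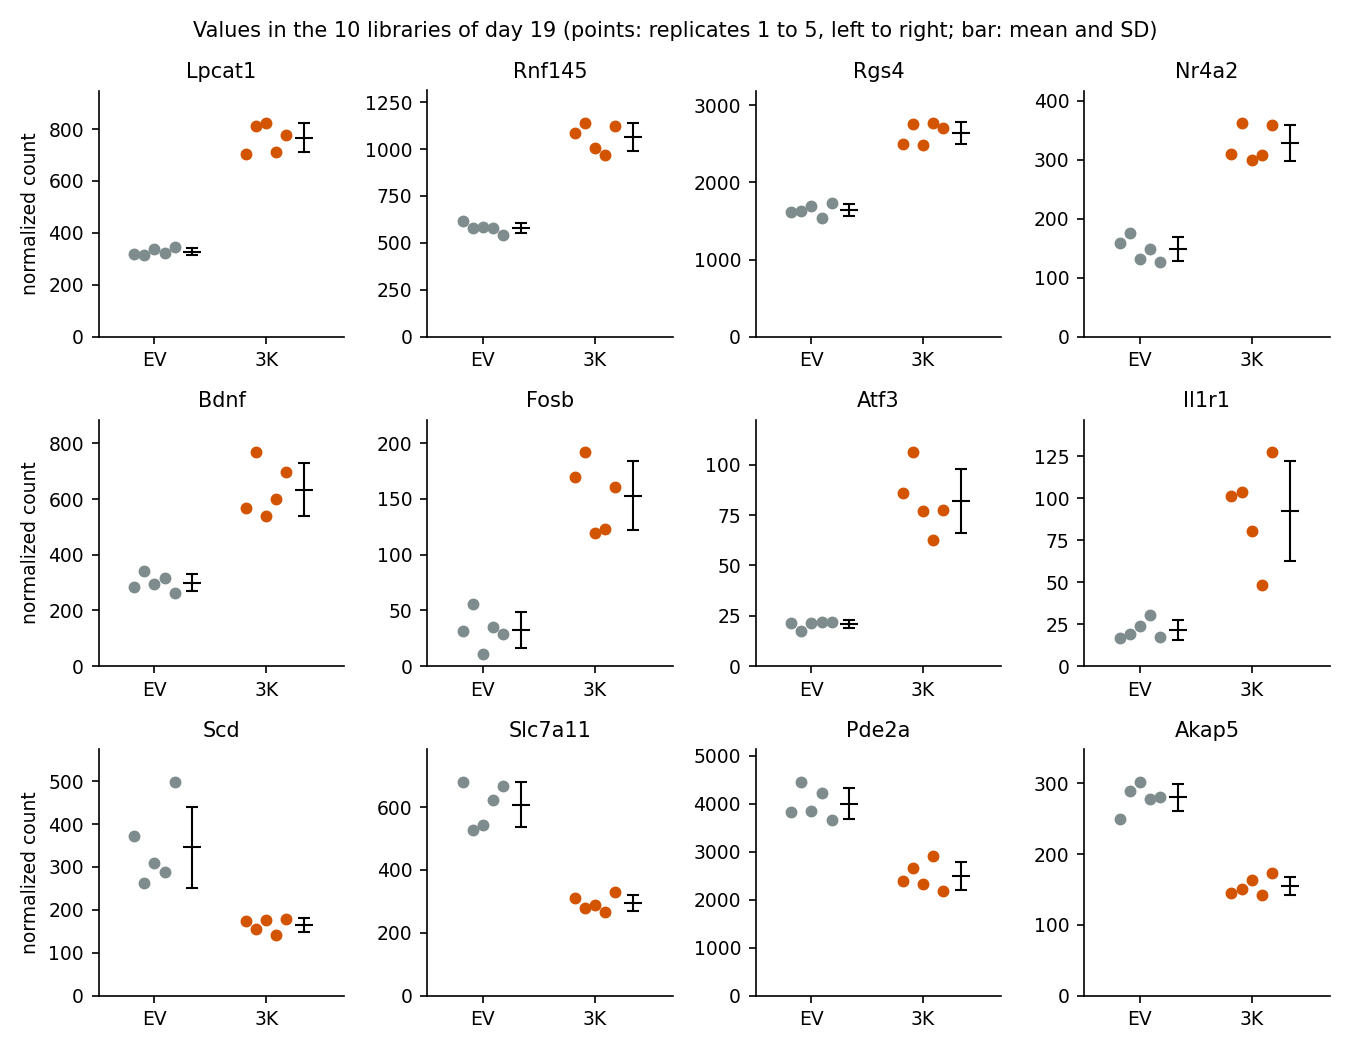
Normalized counts of 12 genes in the 5 EV (gray) and 5 3K (orange) libraries of day 19, with replicates 1 to 5 from left to right and the mean ± SD as a black bar. In each of the 12 genes no 3K library lies within the range of the EV libraries, and among the 8 genes that rose 3K replicate 4 is the lowest 3K library in Rnf145, Atf3 and Il1r1.

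Among genes with a mean count of at least 50 and no overlap between groups, the largest rises were those of Fosb (2.34), Il1r1 (2.01), Atf3 (1.91), Fam150b (1.74), Cd44 (1.49), Tnc (1.41) and Ret (1.23), on the log2 scale. Fam150b encodes a ligand of the receptor kinases Alk and Ltk, and its counts were 27.6, 27.3, 20.6, 18.3 and 22.7 in EV and 71.9, 87.4, 66, 72.7 and 104.6 in 3K. Ret, the signaling receptor for ligands of the GDNF family, went from 141 ± 27.6 to 327 ± 27.5 (SD, n = 5 each; SE 0.17, adjusted p = 8.3e-06). Fam102b rose by 1.21 (SE 0.12, adjusted p = 3.5e-08), with 30 to 53.1 in EV and 80.6 to 107.7 in 3K. These genes had few reads in EV, and the groups were separate in all of them because the rule that named them required it.

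Among the largest falls under the same rule were those of Slc7a11, Scd1, Fam107a, Apln, Grp and Akap5. Slc7a11, the cystine and glutamate exchanger that supplies cystine for glutathione, had counts of 681, 527, 542, 622 and 668 in EV and 312, 279, 290, 267 and 330.3 in 3K. No library of either group came near the other, and the log2 fold change was -1.03 (SE 0.13, adjusted p = 2.9e-06). Fam107a, an actin-associated gene induced by glucocorticoids, was at 120 ± 16.7 in EV and 62.3 ± 19.1 in 3K (SD, n = 5 each; log2 fold change -0.98, SE 0.27, adjusted p = 0.019), and its adjusted p was up to 0.065 without 3K replicate 1, without 3K replicate 4 or with the mitochondrial share as a term. Akap5, which anchors protein kinase A and calcineurin at the postsynaptic membrane, had counts of 250, 289, 302, 278 and 281 in EV and 146, 150, 164, 142 and 173 in 3K, a log2 fold change of -0.85 (adjusted p = 1.2e-05, SE 0.12). Cbln4, a secreted synapse organizer, fell by 0.82 on the log2 scale, Slco1c1, a carrier of thyroid hormone, by 0.70, Prrt2, a presynaptic protein whose loss causes paroxysmal dyskinesia in humans, by 0.68, Mfsd2a, a carrier of lysophosphatidylcholine with docosahexaenoic acid, by 0.65, and Neurl1, a ubiquitin ligase of dendrites, by 0.63.

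By p instead of by size, the leading falls were in genes with many reads. Pde2a, a phosphodiesterase that breaks down cGMP and cAMP, had counts of 3821, 4457, 3843, 4219 and 3665 in EV and 2396, 2657, 2331, 2910 and 2171 in 3K. The highest 3K library was thus well below the lowest EV library, with a log2 fold change of -0.69 (adjusted p = 1.4e-09, SE 0.06). Lzts1, a postsynaptic density protein, fell from 1328 ± 58.4 to 908 ± 73 (SD, n = 5 each; log2 fold change -0.55, SE 0.05, adjusted p = 4.7e-09), Mras, a small GTPase of the Ras family, from 1144 ± 10.5 to 861 ± 40.5 (log2 fold change -0.41), and Serpinh1, a chaperone of collagen, from 1503 ± 57.8 to 1069 ± 52.4 (log2 fold change -0.49). Among called genes, the largest losses of counts were those of Fth1, the heavy chain of the iron store ferritin, with 34700 ± 1838 in EV and 26870 ± 1204 in 3K (SD, n = 5 each), and of Scd2, a stearoyl-CoA desaturase, with 37350 ± 1744 and 30010 ± 2063. Glul, the glutamine synthetase of astrocytes, went from 19100 ± 609 to 15190 ± 1174, and Fkbp11, a prolyl isomerase of the secretory pathway, was also among the 5 largest losses. The largest gains of called genes were those of the mitochondrially encoded Mt-nd2 and Mt-nd1, with 1982 and 1639 counts, followed by Rgs4 with 1005, Itm2b with 875 and Stmn1 with 854. Itm2b, a membrane protein whose mutations cause familial dementia, was between 6035 and 6592 in EV and between 6852 and 7516 in 3K.

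Transcription factors of the AP-1 and ATF families, which bind DNA in dimers and respond within minutes to activity, growth factors and stress, were mostly higher in 3K. Of 15 genes tested 9 were higher and 1 was lower (60% and 6.67%, against 3.78% and 4.08% of all genes), with a median log2 fold change of 0.44, and 8 to 10 were higher under each alternative examined. Fosb had counts of 31.5, 55.4, 10.8, 35.6 and 28.9 in EV and 169, 192, 119.8, 123 and 160.5 in 3K. The EV values varied widely among themselves, yet the highest of them was well under the lowest of 3K, and the log2 fold change was 2.34 (SE 0.52, adjusted p = 0.0036). Fos was at 203, 269.9, 223, 235 and 285 in EV and 403, 629.8, 468, 457 and 504 in 3K (log2 fold change 1.01, SE 0.15, adjusted p = 3.5e-05). Atf3, which is induced by axon injury and by the integrated stress response, was at 21.6, 17.3, 21.7, 22.1 and 21.7 in EV and 86.1, 106, 77, 62.9 and 77.7 in 3K (log2 fold change 1.91, SE 0.26, adjusted p = 6.5e-06). The EV libraries were thus nearly equal and the 3K libraries were all far above them. Smaller rises were found for Junb (0.78), Jun (0.44) and Jund (0.36), for the growth-factor-induced Fosl1 (1.16, from 19.4 ± 4.48 to 44 ± 8.12; SD, n = 5 each), and for Atf4 (0.16), the transcription factor of the integrated stress response.

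Other genes that depolarization and calcium entry induce in neurons followed. Of 39 tested 15 were higher and 0 lower in limma (38.5% and 0%, against 3.78% and 4.08% of all genes). In edgeR and in DESeq2 0 were lower, and 1 was lower at an unadjusted p under 0.05. Of the 39, 34 had a positive log2 fold change, and the median was 0.30. Nr4a2, an orphan nuclear receptor, had counts of 159, 175, 132, 149 and 127 in EV and 310.2, 363, 301, 308 and 359 in 3K, a log2 fold change of 1.14 (adjusted p = 1.1e-10, SE 0.09). Bdnf, the neurotrophin released on activity, was at 284, 343, 296, 315 and 264 in EV and at 566, 769, 539, 601 and 696 in 3K, with no overlap and a log2 fold change of 1.07 (adjusted p = 2.8e-09, SE 0.10). Nfil3, a repressor of the basic leucine zipper class, rose by 0.94, Csrnp1, a nuclear protein with a transactivation domain, by 0.97, the growth arrest genes Gadd45b and Gadd45g by 1.14 and 0.83, Crem, a modulator of cAMP-responsive transcription, by 0.66 and the kinase Sik1 by 0.62. Rises of Btg2 (0.50), Scg2 (0.50) and Plk2 (0.28) were smaller, as was that of Pcdh8 (0.40), a protocadherin outside the list, and for Scg2 the highest EV library (902) was above the lowest 3K library (899). Several of the best known members did not pass the test. Arc, a regulator of AMPA receptors, was at 426 ± 68.3 in EV and 470 ± 75 in 3K (SD, n = 5 each; adjusted p = 0.82). Egr1, which was called without EV replicate 3, was at 1729 ± 357 and 1414 ± 186 (adjusted p = 0.16), and Npas4 at 33.2 ± 11.2 and 39.3 ± 16 (adjusted p = 0.79). In each of these 3 genes the groups overlapped. Of 19 MAP kinase phosphatases and feedback inhibitors, which activity and growth factors also induce, 2 were higher in limma (Dusp1, by 0.66, and Rgs4). These were 10.5%, against 3.78% of all genes, and 3 were higher in edgeR and in DESeq2. In these 3 fits and at an unadjusted p under 0.05, 0 were lower. Of the 19, 17 had a positive sign, with a median of 0.21.

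The palindrome TGACGTCA, the cAMP response element that dimers of the CREB and ATF families bind, was found in the promoter window of 4 of the genes of the AP-1 and activity lists that were higher. These windows, the 250 bases before the annotated start in RefSeq (GRCr8, which is not the build of the counts), are shown with the element in capitals because Crem, Atf3 and Atf4, which encode members of those families, were higher in 3K.
Scg2 (secretogranin II, chr9:88256867-88257116, minus strand): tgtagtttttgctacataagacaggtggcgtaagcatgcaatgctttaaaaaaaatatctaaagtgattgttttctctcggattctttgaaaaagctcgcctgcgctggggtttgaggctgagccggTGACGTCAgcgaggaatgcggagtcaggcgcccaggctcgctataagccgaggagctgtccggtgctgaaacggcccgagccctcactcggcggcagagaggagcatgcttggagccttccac
Btg2 (antiproliferative cofactor, chr13:48087691-48087940, minus strand): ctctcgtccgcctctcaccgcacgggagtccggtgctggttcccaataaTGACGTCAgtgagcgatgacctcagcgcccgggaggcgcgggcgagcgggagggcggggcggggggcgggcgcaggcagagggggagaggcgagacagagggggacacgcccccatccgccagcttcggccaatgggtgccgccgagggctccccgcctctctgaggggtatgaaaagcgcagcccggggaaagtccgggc
Plk2 (polo-like kinase of synapses, chr2:43702286-43702535, plus strand): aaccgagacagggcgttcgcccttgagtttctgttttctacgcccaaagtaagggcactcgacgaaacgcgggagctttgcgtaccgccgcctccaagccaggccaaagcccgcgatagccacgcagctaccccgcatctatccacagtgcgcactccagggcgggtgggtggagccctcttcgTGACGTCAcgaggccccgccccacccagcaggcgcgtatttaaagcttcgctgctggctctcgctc
Jund (AP-1 subunit, chr16:18769772-18770021, minus strand): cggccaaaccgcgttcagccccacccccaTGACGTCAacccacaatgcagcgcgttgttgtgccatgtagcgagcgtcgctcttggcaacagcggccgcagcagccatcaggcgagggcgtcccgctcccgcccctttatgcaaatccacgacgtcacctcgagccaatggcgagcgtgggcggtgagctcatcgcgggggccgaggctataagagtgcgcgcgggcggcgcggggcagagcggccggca
The element reads the same on both strands and lies 123, 201, 66 and 221 bases before the start in these 4 genes. It was also in the windows of Maff (adjusted p = 0.068, and 0.046 in edgeR), Vgf (adjusted p = 0.91) and Ier2 (adjusted p = 0.25), members of these lists that limma did not call. Of the higher genes with a window, 1 of 6 in the AP-1 list and 3 of 14 in the activity list held the element (16.7% and 21.4%). Of all tested members with a window, called or not, 2 of 11 and 5 of 31 held it (18.2% and 16.1%). It was in 3.03% of the 9425 windows of tested genes and in 1.59% of all 33469 windows of the same length. It was the motif of 6 searched on both strands that was chosen to be shown, after the values were seen; the others were TCACNCCAC (sterol response element), TGANTCA (AP-1 site), TGATGNAA (C/EBP-ATF site), TGACNNNGC (antioxidant response element) and the CArG box. Only 9425 of the 12911 genes tested (73%) could be matched to a window. Among the matched genes the element was in 19 of 378 higher genes (5.03%) and in 9 of 395 lower genes (2.28%). The share of all matched genes was 3.03%. These shares were not tested, and a match is a description of the sequence rather than of binding.

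Secreted peptides and growth factors moved in both directions. Of 24 neuropeptides and granins 6 were higher and 3 lower (25% and 12.5%, against 3.78% and 4.08% of all genes). The median log2 fold change was 0.11. Adm, the vasodilator adrenomedullin, rose by 1.67 from 8.13 ± 1.95 to 27.9 ± 5.68 (SD, n = 5 each), Nppc, the C-type natriuretic peptide, by 0.95, Cartpt by 0.89, Tac1, the precursor of substance P, by 0.74 and Adcyap1, the precursor of PACAP, by 0.50. Grp, the gastrin-releasing peptide, had counts of 161, 215, 171, 211 and 149 in EV and 102, 118, 94.1, 92.4 and 73.5 in 3K, and fell by 0.91 on the log2 scale (SE 0.13, adjusted p = 1.0e-05), as did Apln, the ligand of the apelin receptor, by 0.91 (SE 0.19, adjusted p = 0.0019). Cck, the peptide of many cortical interneurons and pyramidal cells, fell by 0.30, with a lowest EV value (1927) just under the highest 3K value (1938). Of 32 neurotrophic and growth factor ligands 6 were higher (18.8%) and 2 lower (6.25%, near the 4.08% of all genes), with a median of 0.08. In addition to Bdnf, rises were found for Bmp2 (0.84), Hbegf (0.59), an EGF receptor ligand, and Vegfa (0.28), whereas the neurotrophin Ntf3 fell by 0.77 from 28.4 ± 3.57 to 16.3 ± 2.46 (SD, n = 5 each; adjusted p = 0.011).

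Some genes of reactive astrocytes and of the extracellular matrix were higher in 3K, whereas several astrocyte markers were lower, and most members of these lists did not pass the test. Of 17 genes of reactive astrocytes 6 were higher and 1 lower (35.3% and 5.88%, against 3.78% and 4.08% of all genes), with a median log2 fold change of 0.51, while edgeR and DESeq2 called 8 and 9 higher and 0 lower. Of 25 astrocyte markers 2 were higher and 7 lower (8% and 28%), with a median of -0.10. These markers were not compared with genes of like counts, and above a mean count of 1000, 217 of 1224 genes tested were lower. Because these are cultures of mixed cells, fewer cells of a type and less RNA per cell cannot be told apart. Vim, the intermediate filament vimentin, had counts of 372, 305, 367, 357 and 408 in EV and 629.8, 696, 702, 396 and 693 in 3K. In 4 of the 5 3K libraries it was thus far above EV and in 3K replicate 4 within the range of EV (log2 fold change 0.76, SE 0.11, adjusted p = 2.3e-05). Tnc, a matrix glycoprotein of reactive glia, was at 103, 83.6, 91, 96.1 and 99.2 in EV and 274, 231, 269, 200.4 and 307 in 3K, with no overlap (log2 fold change 1.41, SE 0.18, adjusted p = 1.6e-06). Cd44, the receptor for hyaluronan, was at 62, 37.3, 82.4, 34.6 and 90.9 in EV and 158, 185, 183, 114 and 180.2 in 3K (log2 fold change 1.49, SE 0.29, adjusted p = 0.00084). Nes, nestin, rose by 0.48, the copper oxidase Cp by 0.64, and the small heat shock protein Hspb1 from 4.61 ± 1.95 to 16.9 ± 1.65 (SD, n = 5 each; log2 fold change 1.74, adjusted p = 0.018), a call that ended without EV replicate 2 or with a pseudocount of 0.5 (adjusted p up to 0.062). Gfap, the defining filament of astrocytes, was at 4661, 2253, 4542, 4147 and 7173 in EV and 6381, 7566, 6762, 5418 and 6814 in 3K, and it did not pass (log2 fold change 0.62, SE 0.21, adjusted p = 0.063). EV replicate 5 lay within the 3K range and EV replicate 2 far below the other EV libraries, and without 3K replicate 4 or without EV replicate 5 Gfap was called.

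Among the astrocyte markers that fell were Aldoc (-0.52), the aldolase of astrocytes, Glul (-0.33), Ndrg2 (-0.31), Acsbg1 (-0.28), an acyl-CoA synthetase, and S100b (-0.22). Aldoc was at 5012, 4804, 5111, 4868 and 4728 in EV and at 3445, 3078, 3555, 3467 and 3595 in 3K (SE 0.06, adjusted p = 1.8e-07). Acsbg1 was between 3588 and 3837 in EV and between 2854 and 3190 in 3K (SE 0.04, adjusted p = 2.1e-06), and S100b, a calcium-binding protein, between 6660 and 7272 and between 5435 and 6373. For each of these 5 genes every 3K library was below every EV library. In the list of 25 this held for 7 genes, with 1 gene above, against 3.56% below and 3.1% above of all genes tested. The 2 markers called higher were Atp1b2 and Fabp7, with log2 fold changes of 0.24 to 0.29. Aldoc is also a member of the glycolysis list and Acsbg1 of the fatty acid list.

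Of 23 genes of perineuronal nets and matrix proteoglycans 5 were higher and 1 lower (21.7% and 4.35%, against 3.78% and 4.08% of all genes). The median log2 fold change was 0.18. Besides Tnc and Cd44, which this list shares with the reactive astrocyte genes, Acan, the proteoglycan aggrecan, rose by 0.83 from 19.7 ± 6.3 to 34.7 ± 5.21 (SD, n = 5 each), Has2, a hyaluronan synthase, by 1.43 from 4.53 ± 2.31 to 13.4 ± 4.61, and the protease Adamts1 by 1.44 from 6.48 ± 3.1 to 18.4 ± 5.44. The call for Adamts1 (adjusted p = 0.042) ended in 11 of the alternatives, among them those without 3K replicate 1, 2, 3 or 5 or EV replicate 2, 3 or 5, with an adjusted p of up to 0.13. Of 28 genes of collagens, laminins and integrins 3 were higher in limma (10.7%) and 4 in edgeR and in DESeq2. In these fits and at an unadjusted p under 0.05, 0 were lower. Fn1, fibronectin, had counts of 93.5, 73.6, 50.9, 76.9 and 113 in EV and 134, 185, 227, 126 and 183 in 3K (log2 fold change 1.07, SE 0.21, adjusted p = 0.00084), Nid1, nidogen, rose by 0.39 and Sparc, a secreted matrix protein, by 0.28. Of 29 genes of cytokine, interferon and complement signaling 4 were higher and 0 lower in limma (13.8% and 0%). In edgeR 0 were lower, with 1 lower in DESeq2 and 1 at an unadjusted p under 0.05. Il1r1, the receptor for interleukin-1, had counts of 16.7, 19.1, 23.8, 30.8 and 17.6 in EV and 101, 104, 80.7, 48.1 and 127 in 3K (log2 fold change 2.01, SE 0.28, adjusted p = 8.2e-06). The chemokine Cxcl12 (1.07), Tnfrsf12a (0.83), the receptor of the cytokine TWEAK, and the transcription factor Stat3 (0.31) were higher as well. Some genes with few reads in EV, named here after their values were seen, were also higher. Flnc, an actin crosslinker, was at 4.26 ± 4.24 in EV and 25.7 ± 7.47 in 3K (log2 fold change 2.62, adjusted p = 0.0044), the galectin Lgals3 at 12.3 ± 5.05 and 49.4 ± 13.3 (1.95, adjusted p = 0.0028), and the annexin Anxa2, whose groups overlapped, at 5.4 ± 4.15 and 22.2 ± 7.9 (1.99, adjusted p = 0.0095).

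Within the 3K group these changes were not equally large. 3K replicate 4 was the lowest of the 5 3K libraries for 5 of the 6 reactive astrocyte genes that were higher, for 4 of 4 of the cytokine list, for 3 of 3 of the collagen list and for 164 of all 488 higher genes (33.6%, against 21% of all genes tested). It was also the highest 3K library for 224 of the 527 lower genes (42.5%, against 22.7% of all genes tested). In EV, replicate 2 was the lowest library for 155 of the 488 higher genes (31.8%, against 20.2% of all genes tested) and the highest for 211 of the 527 lower genes (40%, against 22.4%). αSyn 3K vector counts in 3K replicates 1 to 5 were 23669, 28883, 22901, 23826 and 24497, with replicate 4 within the range of the others. Why 3K replicate 4 lay nearer to EV in these genes was not tested. Without 3K replicate 4, limma called 500 genes higher and 607 lower, and without EV replicate 2, 390 higher and 399 lower. The microglial list had 2 tested members, with a summed level of 389 to 460.5 in EV and 430.2 to 484 in 3K, and 0 were called in limma, edgeR or DESeq2 or at an unadjusted p under 0.05. Of 6 tested endothelial, mural and meningeal markers 1 was higher (16.7%, against 3.78% of all genes). This was Tagln, an actin-binding protein of smooth muscle (from 28.1 ± 4.57 to 58.2 ± 5.61, SD, n = 5 each). The summed level of that list was 622 to 718 in EV and 663 to 851 in 3K. Of 15 markers of the oligodendrocyte lineage 1 was higher (6.67%). The part of cell composition in the changes of matrix and glial genes was not tested.

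**Figure D3:**
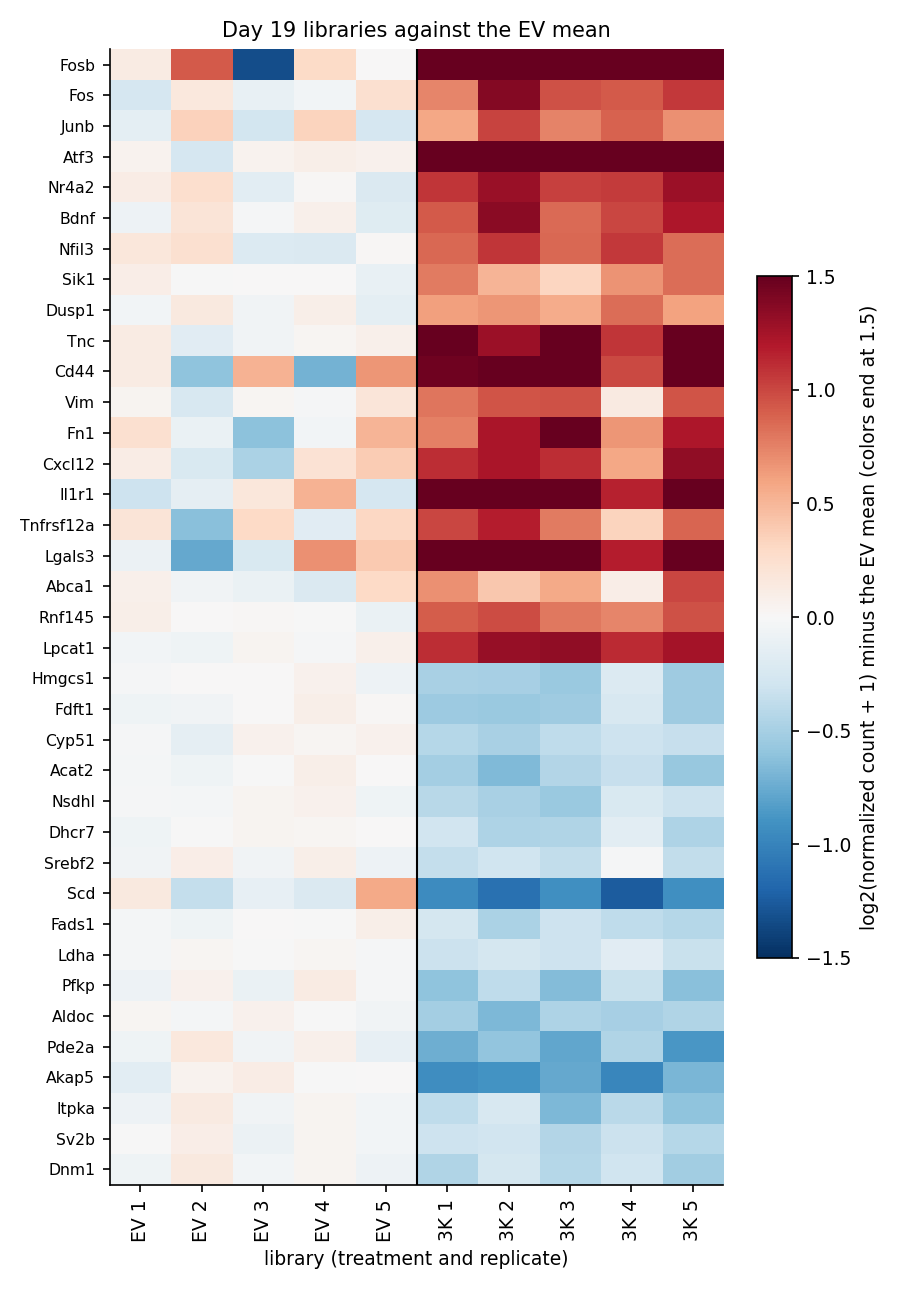
Log2(normalized count + 1) of 37 genes in the 10 libraries of day 19, each minus the mean of the 5 EV libraries, with red for higher and blue for lower and the colors ending at 1.5 on the log2 scale. The 5 3K columns share the direction of each gene, and in the column of 3K replicate 4 Vim (396), Il1r1 (48.1) and Abca1 (617) are nearer to EV, as are Hmgcs1 (4379) and Srebf2 (2230).

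Enzymes of cholesterol synthesis formed the list with the largest share of lower genes. Of 22 tested 14 were lower and 0 higher (63.6% and 0%, against 4.08% and 3.78% of all genes), 19 had a negative sign, and the median log2 fold change was -0.28. In limma, edgeR and DESeq2 alike 0 were higher, also at an unadjusted p under 0.05. The falls ran from the start of the pathway to its end. Acat2, which condenses acetyl-CoA, had counts of 458, 446, 463, 495 and 466 in EV and 327, 293, 342, 366 and 314 in 3K (log2 fold change -0.51, SE 0.05, adjusted p = 6.4e-09). Hmgcs1, the HMG-CoA synthase, had 4992, 5090, 5086, 5302 and 4802 in EV and 3592, 3588, 3422, 4379 and 3487 in 3K (log2 fold change -0.46, SE 0.04, adjusted p = 1.4e-08). The 3K libraries were all below EV, and replicate 4 was the nearest to it. Fdft1, the squalene synthase, fell by 0.48, and the enzymes that turn lanosterol into cholesterol, Cyp51, Msmo1, Nsdhl and Dhcr7, fell by 0.39, 0.41, 0.40 and 0.36.

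Genes that sense and move sterols were mixed, with 2 higher and 6 lower of 26 tested. These were 7.69% and 23.1%, against 3.78% and 4.08% of all genes, and the median log2 fold change was -0.04. Srebf2 and Srebf1, the transcription factors that drive sterol and fatty acid genes, were both lower. Srebf1 had counts of 2999, 3078, 2589, 3237 and 2989 in EV and 2159, 1994, 2107, 2039 and 1820 in 3K (log2 fold change -0.56, SE 0.09, adjusted p = 9.6e-05), and Srebf2 had 2172, 2425, 2180, 2405 and 2142 in EV and 1758, 1837, 1751, 2230 and 1753 in 3K (log2 fold change -0.28, SE 0.05, adjusted p = 0.00077). For Srebf1 the groups did not overlap, and for Srebf2 only 3K replicate 4 lay within the EV range. Insig1, which holds the SREBP complex in the endoplasmic reticulum, fell by 0.25. Abca1, which exports cholesterol, went the other way, with counts of 603, 552, 535, 494 and 708 in EV and 927, 763, 853, 617 and 1153 in 3K. The groups overlapped in 1 library each (log2 fold change 0.56, SE 0.12, adjusted p = 0.0031). Rnf145, described above, was the other gene that was higher.

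Of 27 genes for making and desaturating fatty acids 13 were lower and 0 higher in limma (48.1% and 0%, against 4.08% and 3.78% of all genes). In edgeR and DESeq2 0 were higher, and 2 were higher at an unadjusted p under 0.05. The median log2 fold change was -0.23. Scd1, listed under the symbol Scd, is the desaturase that makes monounsaturated fatty acids, and its counts were 372, 262, 309, 289 and 499 in EV and 175, 155, 177, 142 and 178 in 3K. EV varied more than 3K, and the lowest EV library was still far above the highest of 3K (log2 fold change -1.03, SE 0.11, adjusted p = 8.0e-08). Scd2, its brain paralog, fell by 0.32, and reads shared by the paralogs may have been divided between them in the counting. Fads1 and Fads2, the desaturases of polyunsaturated fatty acids, fell by 0.37 and 0.34, Me1, the malic enzyme, by 0.32, and Acly, which makes cytosolic acetyl-CoA, by 0.23. The largest fall of the list was in a gene with few reads, Thrsp, a regulator of lipogenic enzymes, with 18.4 ± 6.55 in EV and 4.91 ± 2.31 in 3K (SD, n = 5 each; log2 fold change -1.73, SE 0.37, adjusted p = 0.0024). Of 33 phospholipid and lysophospholipid enzymes 2 were higher and 2 lower (6.06% each), with a median of -0.05. Next to Lpcat1 the other gene that rose was Gpat3, a glycerol phosphate acyltransferase, with 47.2, 47.3, 49.8, 50.9 and 48.6 in EV and 71.9, 124, 83.1, 69.8 and 108 in 3K (log2 fold change 0.86, SE 0.20, adjusted p = 0.0048). Of the 33 enzymes 29 were not called, and the shares called were near the 3.78% and 4.08% of all genes.

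Many but not all glycolytic enzymes fell, by small amounts. Of 26 tested 13 were lower and 2 higher (50% and 7.69%, against 4.08% and 3.78% of all genes), 21 had a negative sign, and the median log2 fold change was -0.13. Above a mean count of 1000, 217 of 1224 genes tested were lower, and this list was not compared with genes of like counts. Pfkp, the platelet form of phosphofructokinase, was at 1952, 2158, 1917, 2242 and 2027 in EV and 1355, 1572, 1310, 1624 and 1330 in 3K (log2 fold change -0.52, SE 0.06, adjusted p = 6.0e-07). Ldha, a lactate dehydrogenase subunit, was at 8193, 8532, 8324, 8558 and 8293 in EV and 6722, 6983, 6770, 7458 and 6664 in 3K. The change was small (log2 fold change -0.28, SE 0.03, adjusted p = 5.0e-08), yet every EV library was above every 3K library. Gpi, the isomerase that follows hexokinase, fell by 0.30 and Gapdh by 0.18. The 2 genes that rose were Slc16a1 (0.42), which carries lactate across the membrane, and Pfkfb3 (0.24), which makes the activator of phosphofructokinase. Of 52 nuclear genes of oxidative phosphorylation 3 were lower and 0 higher in limma, edgeR and DESeq2. The share lower was 5.77%, near the 4.08% of all genes. At an unadjusted p under 0.05, 0 were higher, and the median was -0.04. When only the 10 libraries were fitted, 1 was lower. By contrast, of the 12 tested protein-coding genes of the mitochondrial genome 2 were higher (16.7%) and 0 lower in limma, edgeR and DESeq2. At an unadjusted p under 0.05, 0 were lower. Of the 12, 11 had a positive sign, with a median of 0.18. Mt-nd2 was at 8199, 9124, 8241, 8616 and 7139 in EV and 9261, 11300, 10223, 11206 and 9238 in 3K (log2 fold change 0.31, adjusted p = 0.0036). For Mt-nd1 (log2 fold change 0.32, adjusted p = 0.037) the call ended in 8 of the alternatives, among them those without 3K replicate 1, 2, 3 or 4 or EV replicate 5 and that with the mitochondrial share as a term, with an adjusted p of up to 0.13.

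**Figure D4:**
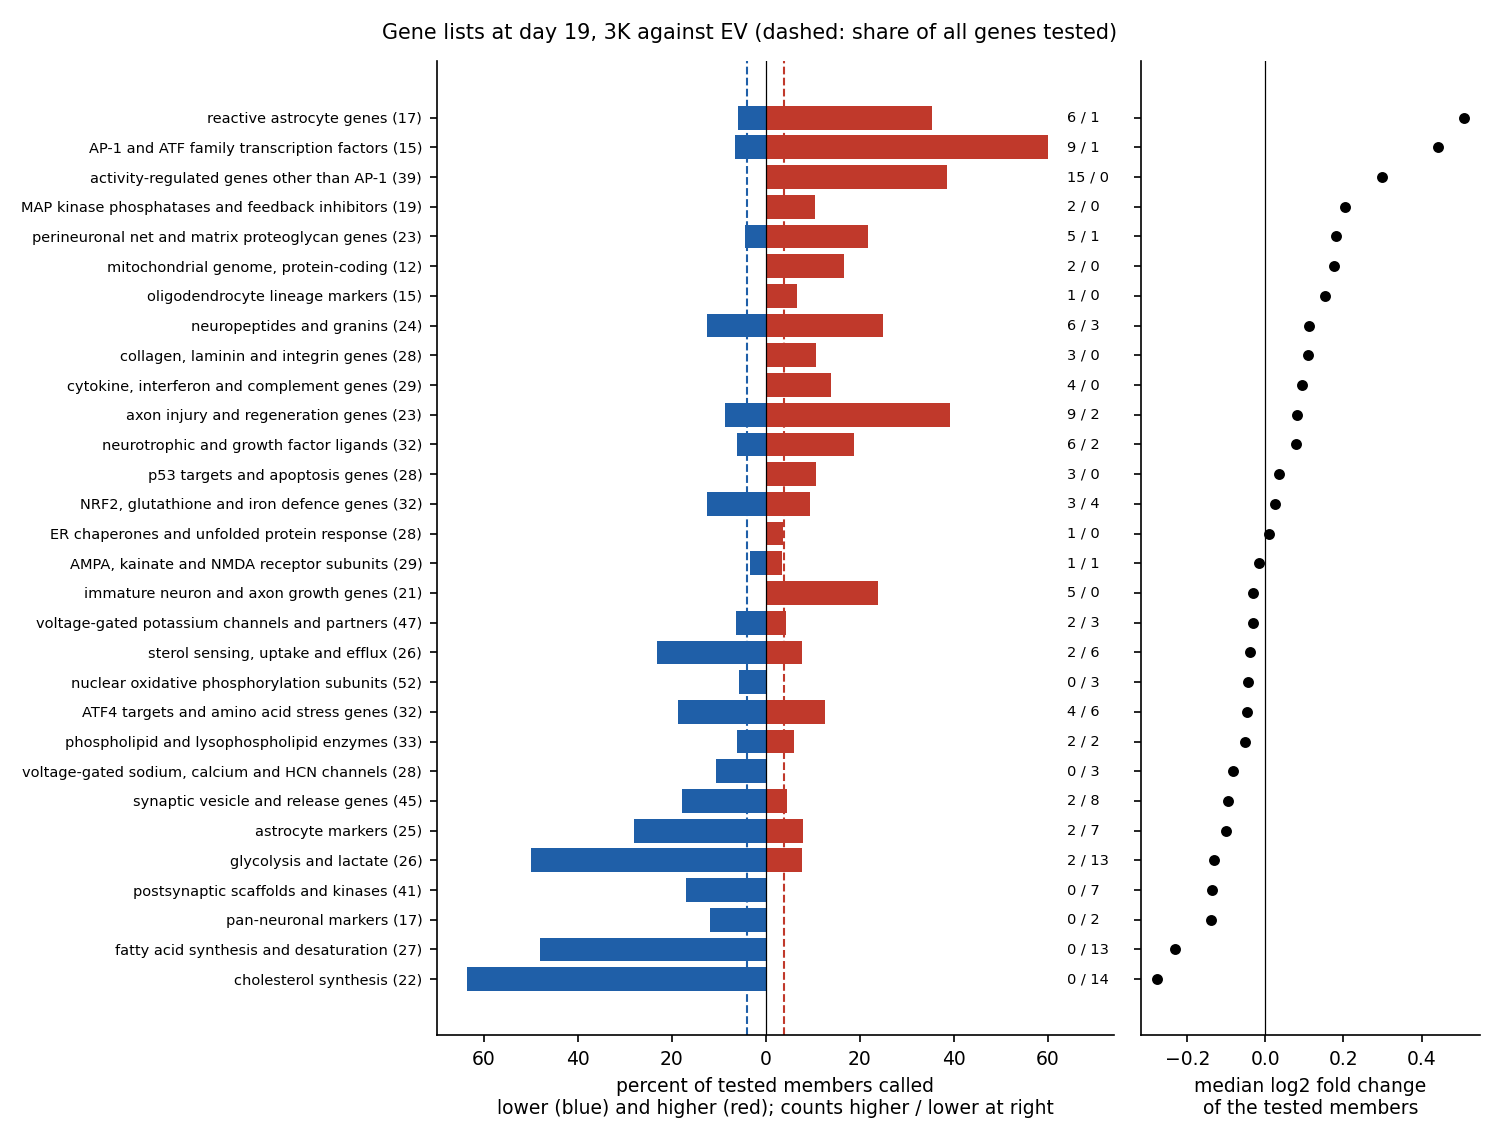
Share of the tested members of a list called higher (red, right) or lower (blue, left) in 3K at day 19, with their number in parentheses. The lists are those described one by one, without the microglial and the endothelial, mural and meningeal lists, which had few tested members. Counts are at the right edge, and dashed lines lie at 3.78% and 4.08%, the shares of all genes. The right panel gives the median log2 fold change of the members. AP-1 and ATF genes (60%) have the largest share of higher members, and cholesterol synthesis (63.6%) and glycolysis (50%) the largest shares of lower members.

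Stress genes did not move as a block. Of 32 ATF4 targets and amino acid stress genes 4 were higher and 6 lower (12.5% and 18.8%, against 3.78% and 4.08% of all genes). The median log2 fold change was -0.05. Ddit3, the transcription factor CHOP, had counts of 122, 144, 161, 160.5 and 144 in EV and 198, 212.5, 196, 200.4 and 204 in 3K (log2 fold change 0.47, SE 0.10, adjusted p = 0.003), and Chac1, which degrades glutathione, and Ppp1r15a, which restarts translation after stress, rose by 0.38 and 0.48. By contrast Ddit4, an inhibitor of mTOR, fell by 0.60 (SE 0.08, adjusted p = 1.9e-06), from 350 ± 15.9 to 231 ± 22.1 (SD, n = 5 each), and Psat1, of serine synthesis, by 0.35. Of 28 genes of endoplasmic reticulum chaperones and the unfolded protein response 1 was higher (3.57%) and 0 lower in limma, edgeR and DESeq2. At an unadjusted p under 0.05, 1 was lower, and the median was 0.01. The summed level of these genes was 27506 to 27740 in EV and 26972 to 28176 in 3K. Of 32 genes of NRF2, glutathione and iron defense 3 were higher and 4 lower (9.38% and 12.5%). Nqo1, a quinone reductase and NRF2 target, was at 301, 265, 285, 275 and 342 in EV and 551, 475, 519, 428 and 595 in 3K (log2 fold change 0.80, SE 0.09, adjusted p = 5.7e-07). Tfrc, the transferrin receptor, rose by 0.34, whereas Fth1 fell by 0.37 (SE 0.04, adjusted p = 3.2e-07). The lowest EV library was at 32322 and the highest 3K library at 27926. Cryab, a small heat shock protein, rose by 0.60 from 131 ± 15.2 to 197 ± 12.3 (SD, n = 5 each).

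Of the 28 p53 targets and apoptosis genes tested, 3 were higher and 0 lower in limma (10.7% and 0%, against 3.78% and 4.08% of all genes). In edgeR 0 were lower, with 1 lower in DESeq2 and 1 at an unadjusted p under 0.05. Among the higher genes were Bcl2l11 (0.73), which encodes the proapoptotic BIM, and Gadd45a (0.56), a gene induced by growth arrest and DNA damage. The list's median log2 fold change was 0.03. Of 23 genes of axon injury and regeneration 9 were higher and 2 lower (39.1% and 8.7%), with a median of 0.08. Atf3, Jun, Crem, Ddit3, Adcyap1 and Gadd45a among the higher genes also belong to lists already described.

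At synapses the changes were small and mostly downward. Of 41 postsynaptic scaffolds and kinases 7 were lower and 0 higher in limma (17.1% and 0%, against 4.08% and 3.78% of all genes). In edgeR and DESeq2 and at an unadjusted p under 0.05, 0 were higher. Of the 41, 33 had a negative sign, and the median log2 fold change was -0.14. In addition to Akap5, falls were found for Itpka (-0.46), an IP3 kinase that bundles actin in spines, Dlgap3 (-0.40), a scaffold of the postsynaptic density, and Camkv (-0.21). Itpka was at 586, 676, 595, 633 and 599 in EV and 472, 523, 385, 466 and 405 in 3K (SE 0.08, adjusted p = 8.7e-05). Of 45 genes of synaptic vesicles and release 8 were lower and 2 higher (17.8% and 4.44%). Of the 45, 31 had a negative sign, and the median was -0.10. Falls were frequent in any genes with many reads, with 217 of 1224 lower above a mean count of 1000. The synaptic lists were not compared with genes of like counts. Sv2b, a vesicle glycoprotein, was at 3765, 4031, 3553, 3883 and 3664 in EV and 3055, 3098, 2794, 3025 and 2808 in 3K (log2 fold change -0.35, SE 0.05, adjusted p = 8.4e-06). Dnm1, the dynamin of vesicle endocytosis, fell by 0.39, Syn2, a synapsin, by 0.26 and Stx1a by 0.19, while Rab3b, a vesicle GTPase, rose by 0.43. Slc17a7, the vesicular glutamate transporter VGLUT1, was at 7775 ± 226 in EV and 7205 ± 154 in 3K (SD, n = 5 each; log2 fold change -0.11, adjusted p = 0.005), a call that ended when only the 10 libraries of day 19 were fitted (adjusted p = 0.08).

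Subunits of ion channels and receptors changed little. Of 28 genes of voltage-gated sodium, calcium and HCN channels 3 were lower and 0 higher in limma, edgeR and DESeq2. The share lower was 10.7%, against 4.08% of all genes, and 2 were higher at an unadjusted p under 0.05. The calcium channel subunit Cacnb3 (-0.26) was among the lower genes. Of 47 genes of potassium channels 2 were higher and 3 lower (4.26% and 6.38%), and 5 were lower in edgeR and in DESeq2. Kcnh3 (-0.42) and the astrocytic Kcnj10 (-0.48) were among the lower genes. Of 29 AMPA, kainate and NMDA receptor genes 1 was higher and 1 lower, shares of 3.45% each that were near those of all genes. Of 17 pan-neuronal markers 2 were lower in limma (11.8%), 3 in edgeR and 4 in DESeq2. In these fits and at an unadjusted p under 0.05, 0 were higher. Of the 17 markers, 16 had a negative sign, and the median was -0.14. Their summed level was 45353 to 49177 in EV and 41867 to 46079 in 3K, so that the groups overlapped. Of 21 genes of immature neurons and axon growth 5 were higher (23.8%, against 3.78% of all genes) and 0 lower in limma. In edgeR 0 were lower, with 1 lower in DESeq2 and 4 at an unadjusted p under 0.05. Of the 21, 11 had a negative sign, and the median was -0.03. Stmn1, which destabilizes microtubules, was at 4847, 5000, 5069, 4740 and 4816 in EV and 5751, 5974, 5839, 6044 and 5132 in 3K (log2 fold change 0.23, SE 0.03, adjusted p = 3.6e-05), and Cd24 rose by 0.25. Other changes in neuronal genes included Fezf2 (0.67), a transcription factor of deep-layer projection neurons, Sema3c (0.57), a secreted guidance cue, and Gng3 (0.49), a neuronal G protein subunit. Atp6v0d1, a subunit of the lysosomal proton pump, fell by 0.17. The remaining 18 of the 50 lists, with 470 genes tested, had 23 higher (4.89%) and 38 lower (8.09%), with at most 4 higher and 5 lower in a list and list medians between -0.09 and 0.11. Of the 1015 genes called, 784 were in none of the 50 lists.

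To place day 19 in time, the same contrast was taken at days 6 and 12, each with its own EV and 3K libraries, and the difference between the contrasts was tested gene by gene. Between day 12 and day 19 the 3K effect was different for 70 genes, 0.542% of those tested, with 43 more positive and 27 more negative at day 19. Between day 6 and day 19 it was different for 195 genes, 1.51% of those tested, with 95 more positive and 100 more negative. Of these, 68 of 70 and 184 of 195 were also called at day 19, as were 1015 of all 12911 genes tested. This overlap is partly built in, because the differences between days include the day 19 contrast and its libraries. Of the 27 genes with a more negative effect at day 19 than at day 12, 7 were enzymes of cholesterol synthesis (Fdft1, Cyp51, Acat2, Hmgcs1, Msmo1, Nsdhl and Dhcr7), and Insig1, Ldha and Pfkp were among the others. The smallest p was that of Lzts1, with log2 fold changes of -0.01 at day 6, 0.01 at day 12 and -0.55 at day 19 (difference from day 12 -0.56, SE 0.07, adjusted p = 9.0e-05). Fdft1 had -0.06, -0.04 and -0.48 at the 3 days (difference from day 12 -0.44, SE 0.06, adjusted p = 0.00032). Among the 43 with a more positive effect were Sema3c, Nr4a2, Lpcat1, Nqo1, Chac1, Ddit3, Il1r1, Atf3 and Vim. Sema3c had 0.03, 0.04 and 0.57, Nqo1 had -0.20, 0.05 and 0.80, and Chac1 had -0.26, -0.22 and 0.38. Lpcat1 was already higher at day 6 (0.56) and day 12 (0.72), and its effect was still larger at day 19 (difference from day 12 0.51, SE 0.07, adjusted p = 0.00032). For other genes no difference between days 12 and 19 was called. Fos had 0.54, 0.92 and 1.01 (difference from day 12, adjusted p = 0.95), Acsbg1 had -0.22, -0.26 and -0.28 (adjusted p = 0.95), and Scd1 had -0.46, -0.49 and -1.03 (adjusted p = 0.13).

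Counts of genes that differ between days 12 and 19 were not stable against leaving out single libraries. The 43 became 20 without 3K replicate 2 and 62 without 3K replicate 4, and the 27 became 15 without 3K replicate 3 and 48 without 3K replicate 4. Over all called genes the earlier days leaned the same way. Of the 488 genes higher at day 19, 381 (78.1%) had a positive log2 fold change at day 12 and 307 (62.9%) at day 6, against 50.9% and 49.1% of all genes tested, and of the 527 lower genes 110 (20.9%) were positive at day 12 and 172 (32.6%) at day 6.

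**Figure D5:**
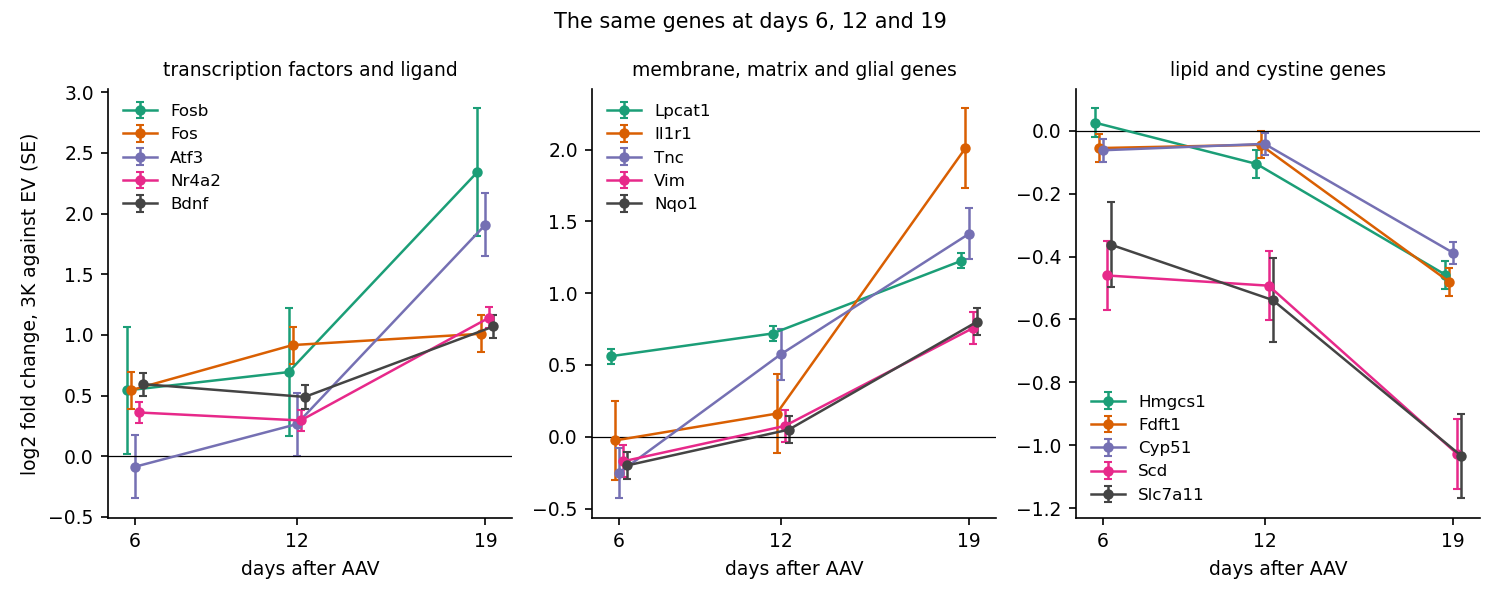
Log2 fold change of 3K against EV (with SE from the fit of all 30 libraries) at days 6, 12 and 19 for 15 genes in 3 panels. Il1r1 (-0.03, 0.16 and 2.01), Atf3 (-0.09, 0.26 and 1.91) and the cholesterol enzymes Hmgcs1, Fdft1 and Cyp51 lie near 0 until day 12, whereas Lpcat1 (0.56, 0.72 and 1.23), Bdnf and Scd (-0.46, -0.49 and -1.03) are displaced at all 3 days.

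The genes called at day 19 also differed in how they develop in control cultures. From day 6 to day 12 in EV, 23.3% of all genes tested rose and 21.2% fell. The libraries of that interval do not enter the day 19 contrast, but they share its estimate of each gene's spread. Of the 488 genes higher in 3K at day 19, 104 (21.3%) rose and 208 (42.6%) fell over that interval, with a median log2 fold change of -0.12, and of the 527 lower genes 287 (54.5%) rose and 82 (15.6%) fell, with a median of 0.18. Genes lower in 3K thus included a larger share of genes that rise as EV cultures age, and genes higher in 3K a larger share of genes that fall. Lpcat1 was among the latter, with a change of -0.54 from day 6 to day 12 in EV. A gene with many reads or little spread is more likely to be called both at day 19 and over that interval. The median count was 243 for the higher genes and 739 for the lower genes, against 161 for all genes tested. The shares that rose or fell were not compared among genes of like counts.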

How the data were processed

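Libraries were made with SMART-Seq v4 and Nextera XT and sequenced on an Illumina instrument. The authors aligned reads with STAR 2.5.2b to Rnor_6.0, to which they had added the αSyn 3K vector, estimated gene counts with RSEM 1.2.31 and divided them by DESeq2 size factors. The deposited values are this signal, normalized counts per gene. The size factors may have been set with libraries not analysed here. Multiplied back, 100% of values came out as whole reads within a tolerance of 0.01, and these reads served for edgeR 4.0.16 and DESeq2 1.42.0 as alternatives. The main test was limma 3.58.1 (limma-trend, 6 group means, all 30 libraries) on log2(normalized count + 1), with Benjamini-Hochberg adjustment over 12911 genes, and was tested on simulated data. Whether the 5 replicates came from separate cultures is not given in the sources used here, so p-values measure only the spread between these samples. RNA spike-ins were not analysed here.

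The members and the 50 gene lists were chosen with earlier results of these data known. The rule for named genes took, in each direction, the 15 that changed most (called, no overlap, mean count of at least 50), the 10 with the smallest p and the 5 with the largest difference of counts also in each direction, the 5 with the smallest p for day 19 against day 12, again by direction, up to 6 per list, and Lpcat1, Rnf145, Rgs4, Scd1, Scd2, Fam102b, Acsbg1, Snn, Psat1, Rgcc and Pcdh8, of which Rgcc fell by 0.52 on the log2 scale. Chosen after their values were seen were Atf4, Plk2, Csrnp1, Gadd45g, Arc, Egr1, Npas4, Ntf3, Gfap, Flnc, Lgals3, Anxa2, Nsdhl, Fads2, Thrsp, Pfkfb3, Ppp1r15a, Maff, Vgf and Ier2. Some genes that the rule took are not reported here. Where a symbol had several entries the one with the highest mean was used, and 1388 of 1409 listed names were matched, of which 1241 were tested.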

Additional observations from a re-analysis of the deposited data

Results flagged for a closer look

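In 14 of the 288 groups of 5 libraries examined, a single library was farther from the others than Dixon's critical value allows, and chance gives about 1 in 20. In EV these normalized counts were those of Atf3 in replicate 2 (17.27), Fam107a in replicate 3 (91.02), Neurl1 in replicate 2 (1657), Mt-nd1 in replicate 5 (5233), Jund in replicate 1 (662.1), Scg2 in replicate 2 (901.6) and Cd24 in replicate 2 (855.3). In 3K they were those of Btg2 in replicate 4 (307.5), Vim in replicate 4 (395.9), Aldoc in replicate 2 (3078), Hmgcs1 in replicate 4 (4379), Fdft1 in replicate 4 (1200), Srebf2 in replicate 4 (2230) and Slc16a1 in replicate 5 (704.1). Of these, Btg2, Vim, Hmgcs1, Fdft1 and Srebf2 were in 3K replicate 4, and in each of them that library lay on the side of EV.

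Tested against each other, the day 19 and day 12 effects of 3K were different for 33 of the 144 named genes. On the log2 scale, the day 19 effect was more positive for Lpcat1 (0.506), Rgs4 (0.2997), Rnf145 (0.4114), Tmem50b (0.3097), Nr4a2 (0.8487), Bdnf (0.5807), Il1r1 (1.848), Atf3 (1.644), Sema3c (0.5267), Itm2b (0.2434), Hbegf (0.8991), Vim (0.6837), Ddit3 (0.6209), Chac1 (0.6025), Nqo1 (0.7533), Cryab (0.9572), Cd24 (0.24) and Fezf2 (0.492). It was more negative for Pde2a (-0.3912), Lzts1 (-0.5627), Mras (-0.285), Fkbp11 (-0.2432), Hmgcs1 (-0.3518), Fdft1 (-0.4356), Cyp51 (-0.3465), Acat2 (-0.3836), Msmo1 (-0.3154), Dhcr7 (-0.3241), Nsdhl (-0.3781), Insig1 (-0.281), Ldha (-0.2116), Pfkp (-0.3685) and Itpka (-0.4684). Against day 6, the effects were different for 69 of the 144 named genes. Many of the 144 were named for their day 19 values, and some for the contrast with day 12 itself. Their shares were therefore in part set by the choice. Of all genes tested, 0.542% were different against day 12 and 1.51% against day 6.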

How the results depend on the processing

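Counts at day 19 stayed within 1.5 times of 488 higher and 527 lower under each alternative examined, with 385 to 500 higher and 391 to 607 lower when single libraries were left out and 342 to 631 higher and 376 to 613 lower under the other settings. The added fit with the mitochondrial share, chosen after seeing the data, gave 411 and 423. The labels give replicate numbers but no shared culture behind them. Deviations of same-numbered samples correlated at -0.01, 0.14, 0.06, 0.16 and 0.19 (replicates 1 to 5) and those of other pairs at 0.09 or less, and replicates 2, 4 and 5 of 3K, but not 1 and 3, correlated best with their own number, a hint from the data and not the design. The samples were not treated as paired, and a replicate block gave 522 higher and 613 lower. The difference from day 12 was less stable. More positive effects numbered 15 without a filter on low values and 20 to 62 without single libraries, against 43. More negative effects numbered 45 in DESeq2, 14 without a filter and 15 to 48 without single libraries, against 27. Leaving out 3K replicate 1, 2, 3 or 5 or EV replicate 2, 3 or 4 moved the first count by over 1.5 times, and leaving out 3K replicate 3, 4 or 5 moved the second. Against day 6, fitting only the compared groups gave 55 more positive and 49 more negative, against 95 and 100, and the latter was 68 to 158 without single libraries, with 158 without 3K replicate 4. The cause was not tested. Of 137 named genes that were called, 5 lost the call under some alternative (Adamts1, Fam107a, Hspb1, Mt-nd1 and Slc17a7), and 0 of the 144 named genes changed sign. Genes with few reads had wide errors, so that changes of small size were not detectable in them at this depth.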
